A study of Ovis aries with 6 samples.

Results

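The peroxisomal genes examined here are peroxins, peroxisomal transporters and enzymes of lipid oxidation, ether lipid synthesis and fatty alcohol synthesis, measured in the skin of fine wool and coarse wool sheep. They were chosen by symbol from a list of 34 genes, and 33 of these were found among the 28394 genes of the deposited tables. PEX19 was not analysed here because no row carries that symbol. The 33 genes comprise 12 biogenesis genes, 3 transporters and 18 enzymes, and all 33 had enough counts to be tested.

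Skin RNA of 3 Super Merino (SM) and 3 Small Tail Han (STH) ewes was sequenced, as polyA RNA from behind the shoulder blade and with 1 library per animal. Values per sheep are always given in a fixed order, which is 128, 30034, 30126 for SM and XW3, XW5, XW8 for STH. No treatment is named, the age was 9 months by the sample labels, although the study's methods give a younger one, and the breeds shared a farm and its feed. Each breed is thus represented by 3 animals sampled once. The total counts per sheep ranged from 28870583 to 44645091, and 3 counts, taken as the floor for counting error alone, amount to 0.0672 to 0.104 CPM (a count scaled to a fixed library total). The skin marker genes were present in every library, at a summed level of 20944 to 26743 CPM in SM and 24241 to 31178 CPM in STH sheep over the 9 of 10 listed markers that were found. KRT14 was not analysed here.

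Peroxisomes are small organelles bounded by a single membrane. Their matrix proteins are made in the cytosol, recognised by the receptors PEX5 or PEX7, docked at PEX13 and PEX14 and imported. Inside, very long chain and branched fatty acids are shortened by beta-oxidation and alpha-oxidation, and the first steps of ether lipid synthesis take place. The fatty acyl-CoA reductases FAR1 and FAR2, anchored on the peroxisomal membrane, make the fatty alcohols used for ether lipids and for wax esters. In skin, the sebaceous gland is rich in peroxisomes, and in sheep its secretion is the source of wool grease. Whole skin was sequenced, so that fewer cells of a type and less RNA per cell cannot be told apart in any value given here.

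Levels are given as CPM after TMM normalization, which scales the libraries to each other. Levels of single genes are compared with each other as RPKM, which is per length of exon. Summed CPM, shares of such sums and group means of log2 CPM are not corrected for exon length. Differences are log2 fold changes of SM over STH, a value above 0 being higher in SM. A gene passed when its adjusted p was under 0.05 and it was over 1.5-fold higher in either breed in the quasi-likelihood test of edgeR, fitted over 15320 genes. Adjusted p values are from this test unless another is named, and SE is the standard error of the log2 fold change.

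No member passed these thresholds, against 0% of all genes tested, although 2762 of all genes had an unadjusted p under 0.05. The members fell into a few genes with a difference between the breeds at the unadjusted level and a majority without one. The enzymes ECI2, CRAT and ACAA1 and the peroxins PEX5 and PEX16 were higher in SM sheep, and the transporter ABCD2 and the ether lipid enzyme AGPS higher in STH sheep, each at an unadjusted p under 0.05. This made 5 of 33 members higher in SM, or 15.2%, against 7.21% of all genes tested, and 2 of 33 higher in STH, or 6.06%, against 10.8%. With upper quartile normalization the same 7 genes had an unadjusted p under 0.05, while the share of all genes became 9.38% and 9.15%. In the likelihood ratio test of edgeR, which called 2.30% of all genes (0.868% on the SM side and 1.43% on the STH side), ECI2 and ABCD2 passed both thresholds. In DESeq2, which called 2.78% (0.988% and 1.79%), ECI2 was the only member to do so. Over the 33 members the median log2 fold change was -0.003, beside 0.02 for all genes tested, with 16 genes above and 17 below 0, where 51.4% of all genes were above. Every SM value exceeded every STH value in 4 members, or 12.1%, against 12.3% of all genes, and the reverse held in 3 members, or 9.09%, against 13.3%. In these counts of separated breeds the members were therefore near or under the level of the whole table.

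**Figure D1:**
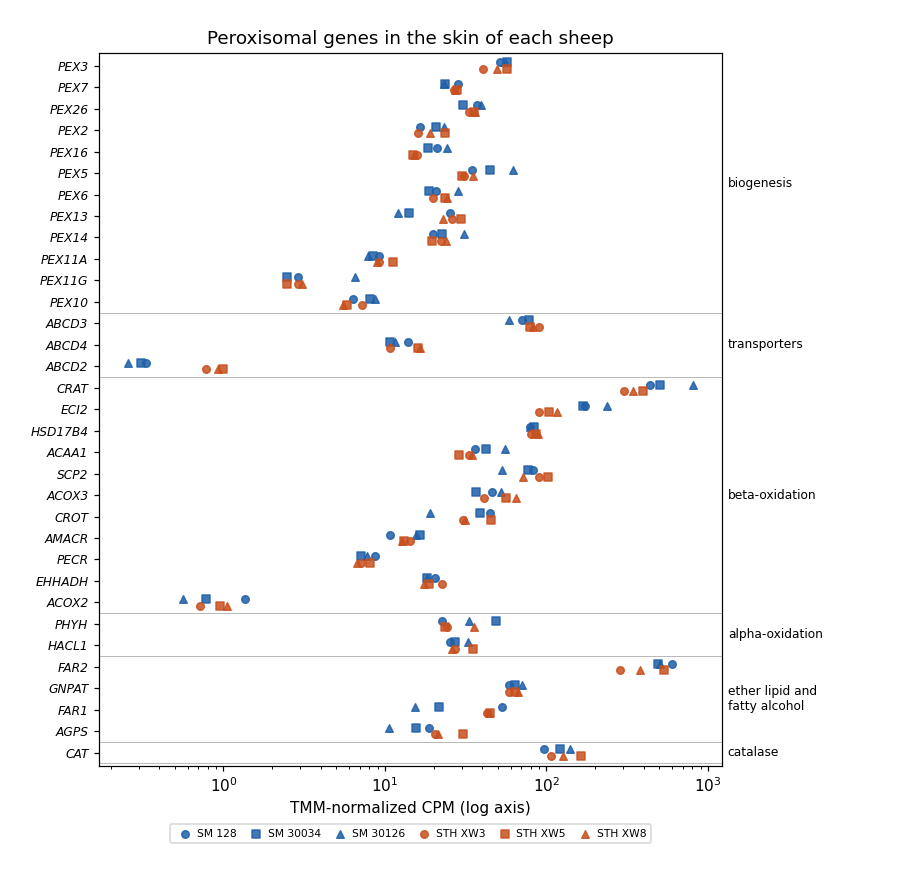
Level of each of the 33 peroxisomal genes in each sheep as TMM-normalized CPM on a log axis, with SM sheep in blue, STH sheep in orange and a marker for each animal. Genes are grouped by role and ordered within a role by mean RPKM. The levels run from under 1 CPM for ABCD2 to 812 CPM for CRAT in SM sheep 30126, and for most genes the breeds overlap.

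The biogenesis genes were expressed at a moderate level. Their RPKM, as the mean over the 6 sheep, ranged from 1.66 for PEX10, a subunit of the ubiquitin ligase of the import machinery, to 16.6 for PEX3, the docking factor for membrane proteins. Their median of 5.56 RPKM compares with 4.35 over all genes tested. In the breed comparison 8 of the 12 were higher and 4 lower in SM sheep, and the median log2 fold change was 0.10. This median became -0.04 without SM sheep 30126, with 4 genes higher and 8 lower, and was 0.02 to 0.19 in the fits without any of the other animals. SM sheep 30126 had the highest value of all 6 sheep in 7 of the 12 genes, or 58.3%, against 33.4% of all genes tested.

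PEX5 is the import receptor for most matrix proteins, which it recognises by a short signal at their end. Its level was 34.4, 44.8 and 61.8 CPM in the SM and 30.9, 29.9 and 35.4 CPM in the STH sheep. SM sheep 30126 was the highest, whereas SM sheep 128 lay within the range of the STH sheep. Its log2 fold change was 0.55 (adjusted p = 0.260, SE 0.21), and it was 0.32 without SM sheep 30126. In the genome build Oar_v4.0, PEX5 spans 206950391 to 206967838 of chromosome 3, on the minus strand.

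PEX16, which together with PEX3 places proteins into the peroxisomal membrane, was the only peroxin found whose breeds did not overlap. The SM sheep had 21.2, 18.4 and 24.2 CPM, against 15.7, 15.02 and 15.06 CPM in STH. All SM sheep were above all STH sheep, and the STH sheep were nearly equal to each other. The log2 fold change was 0.48 (adjusted p = 0.247, SE 0.16) and ranged from 0.39 to 0.56 as each sheep was left out. The gene is on chromosome 15 from 74057399 to 74063769, on the minus strand.

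The docking factor PEX13 had a difference of the opposite sign to PEX5. In SM sheep it was at 25.2 CPM in 128 but only 14.1 in 30034 and 11.97 in 30126, and the STH sheep had 26.2, 29.5 and 22.9 CPM. SM sheep 128 was thus among the STH sheep, and the other SM sheep were below all of them. Its log2 fold change was -0.62 (adjusted p = 0.280, SE 0.27), with a 95% confidence interval from -1.24 to 0.01. The ratio of PEX5 to PEX13, as RPKM within a sheep, was 1.21, 2.82 and 4.58 in the SM sheep, and lay between 0.899 and 1.37 in the STH sheep.

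The other peroxins had no unadjusted p under 0.05. PEX14, the docking partner of PEX13, had a log2 fold change of 0.16 (95% confidence interval -0.29 to 0.60). PEX7, the receptor for a second import signal, had -0.13 (-0.46 to 0.21). For the ubiquitin ligase subunits, which release the receptor, PEX2 had 0.05 and PEX10 0.32. PEX6, one of the ATPases that pull the receptor back out of the membrane, had -0.003, and PEX26, its membrane anchor, 0.03 (-0.31 to 0.37). PEX3 had 0.16 (-0.20 to 0.52). Of the PEX11 genes, which elongate and divide peroxisomes, PEX11A had -0.20 and PEX11G 0.50. PEX11G was at 6.52 CPM in SM sheep 30126 and between 2.48 and 3.05 CPM in the other 5 sheep, and without that animal its log2 fold change was -0.05. The upper bound of the interval was above the 0.48 of PEX16 in PEX2, PEX3, PEX10, PEX11G and PEX14, a size that these data do not set apart from 0 in those genes.

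The transporters of the ABCD family all had a log2 fold change below 0. ABCD2 carries very long chain fatty acyl-CoA into the peroxisome, and it was rare in this tissue, with 10, 14 and 10 counts in the SM and 24, 42 and 28 counts in the STH sheep. These counts correspond to 0.331, 0.310 and 0.255 CPM in the SM and 0.778, 0.995 and 0.927 CPM in the STH sheep, a few times the floor of 3 counts. The breeds did not overlap, with means of 0.298 ± 0.0392 (SD, n = 3) and 0.900 ± 0.111 (SD, n = 3). On the log2 scale SM minus STH was -1.59 (adjusted p = 0.247, SE 0.47), the largest of all members in either direction. By the likelihood ratio test its adjusted p was 0.0417 and by DESeq2 0.118.

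ABCD3, the most abundant peroxisomal membrane protein in many tissues and a carrier of branched chain acyl-CoA, was far more abundant than ABCD2, at 15.6 against 0.0768 RPKM over the 6 sheep. Its level was 70.8, 78.3 and 58.7 CPM in the SM and 89.5, 79.2 and 82.5 CPM in the STH sheep. Every STH value exceeded every SM value, narrowly so between SM sheep 30034 and STH sheep XW5. The log2 fold change was -0.27 (adjusted p = 0.333, SE 0.15). ABCD4, which belongs to the same family but acts on vitamin transport in the lysosome, had -0.26 with overlapping breeds.

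**Figure D2:**
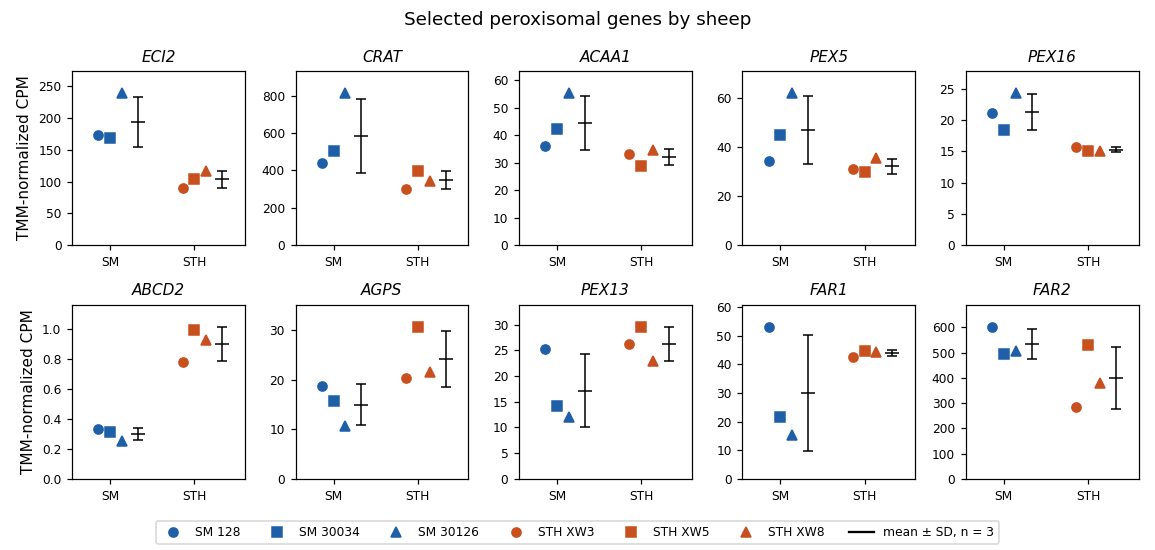
TMM-normalized CPM of 10 peroxisomal genes in each sheep, on linear axes that start at 0. Markers are single animals and the bars to their right give the mean ± SD of 3 sheep. ECI2, CRAT, ACAA1 and PEX16 are higher in all SM sheep, ABCD2 and AGPS in all STH sheep, and for PEX13 and FAR1 SM sheep 128 lies apart from the other SM sheep.

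The enzymes covered a wide range of levels and included some of the more abundant transcripts of the tissue. CRAT was the highest at 119 RPKM over the 6 sheep, followed by ECI2 at 80.6, FAR2 at 62.7 and catalase at 26.1, whereas ACOX2 was the lowest at 0.162 RPKM. Of the 18 enzymes, 13 were above the median gene of those tested. CRAT, FAR2 and ECI2 together made up 66.7%, 65.3% and 72.1% of the summed enzyme CPM in the SM sheep, and 53.1%, 59.0% and 56.4% in STH. The summed enzyme level itself was 1816, 1785 and 2159 CPM in the SM and 1278, 1753 and 1489 CPM in the STH sheep, all SM sheep being above all STH sheep. The median log2 fold change of the 18 genes was nevertheless -0.04, with 8 genes higher and 10 lower in SM sheep.

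ECI2 moves double bonds of unsaturated fatty acids into the position needed for beta-oxidation. The SM sheep had 173, 168 and 239 CPM and the STH sheep 90.4, 104 and 116 CPM. The lowest SM sheep was well above the highest STH sheep. The SM mean was 193 ± 39.3 (SD, n = 3), that of STH 103 ± 12.9 (SD, n = 3), which gave a difference of 0.90 on the log2 scale (adjusted p = 0.185, SE 0.18). This was the smallest adjusted p of the members, and ECI2 ranked 70 among all genes by p. By the likelihood ratio test its adjusted p was 0.00287 and by DESeq2 0.00183. The fold change ranged from 0.74 to 0.99 as each sheep was left out. ECI2 is on chromosome 20 from 48837889 to 48853850, on the plus strand, and it is among the genes that the study picked from these same libraries.

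CRAT, carnitine acetyltransferase, attaches short acyl groups such as the acetyl end product of beta-oxidation to carnitine, and it is found in peroxisomes and in mitochondria. The counts were large, from 9317 to 31880 per sheep. It was at 439, 506 and 812 CPM in the SM sheep and 302, 399 and 346 CPM in the STH sheep. The breeds did not overlap, although SM sheep 128 was close to STH sheep XW5 and SM sheep 30126 stood far above the rest. CRAT had a log2 fold change of 0.75 (adjusted p = 0.247, SE 0.24), and without SM sheep 30126 it was 0.45. CROT, the carnitine transferase for medium chain acyl groups, did not follow CRAT. Its value in SM sheep 30126, 19.1 CPM, was the lowest of all, while the other 5 sheep were between 30.6 and 45.1 CPM, and its log2 fold change was -0.06.

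ACAA1 is the thiolase that completes the cycle for straight chain fatty acids. Its level was 36.0, 42.1 and 55.2 CPM in the SM and 33.1, 28.9 and 34.5 CPM in the STH sheep. SM sheep 128 exceeded STH sheep XW8 by a narrow margin. The breed difference was a log2 fold change of 0.47 (adjusted p = 0.260, SE 0.18), with a lowest value of 0.30 as each sheep was left out. SCP2, which encodes the thiolase for branched chains together with a sterol carrier protein, was on the other side, with 82.5, 76.5 and 52.8 CPM in SM and 90.1, 102 and 71.2 CPM in STH sheep. Its breeds overlapped, and its log2 fold change was -0.31 (95% confidence interval -0.78 to 0.15).

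The remaining enzymes of the cycle showed no difference beyond the spread between sheep. HSD17B4, the multifunctional protein that handles the middle steps of the cycle for most substrates, was the most even of the members, between 79.0 and 88.3 CPM in all 6 sheep, with a log2 fold change of -0.07 (-0.35 to 0.21). EHHADH, which carries out the same steps on other substrates, was between 17.4 and 22.5 CPM, with -0.04. The acyl-CoA oxidases ACOX2 and ACOX3, which begin the cycle for branched chains, had -0.03 and -0.26, ACOX2 from only 22 to 41 counts per sheep. AMACR, the racemase that makes branched acyl-CoA accessible to the cycle, had 0.09, and PECR, an enoyl-CoA reductase, 0.11. In alpha-oxidation, PHYH, the phytanoyl-CoA hydroxylase, had 0.33 with 22.5, 48.5 and 33.4 CPM in the SM and 24.4, 23.4 and 35.7 CPM in the STH sheep. HACL1, the lyase of the following step, had -0.05. Catalase, which breaks down the hydrogen peroxide made by the oxidases, was between 96.4 and 163 CPM, with a log2 fold change of -0.15 (-0.61 to 0.30).

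**Figure D3:**
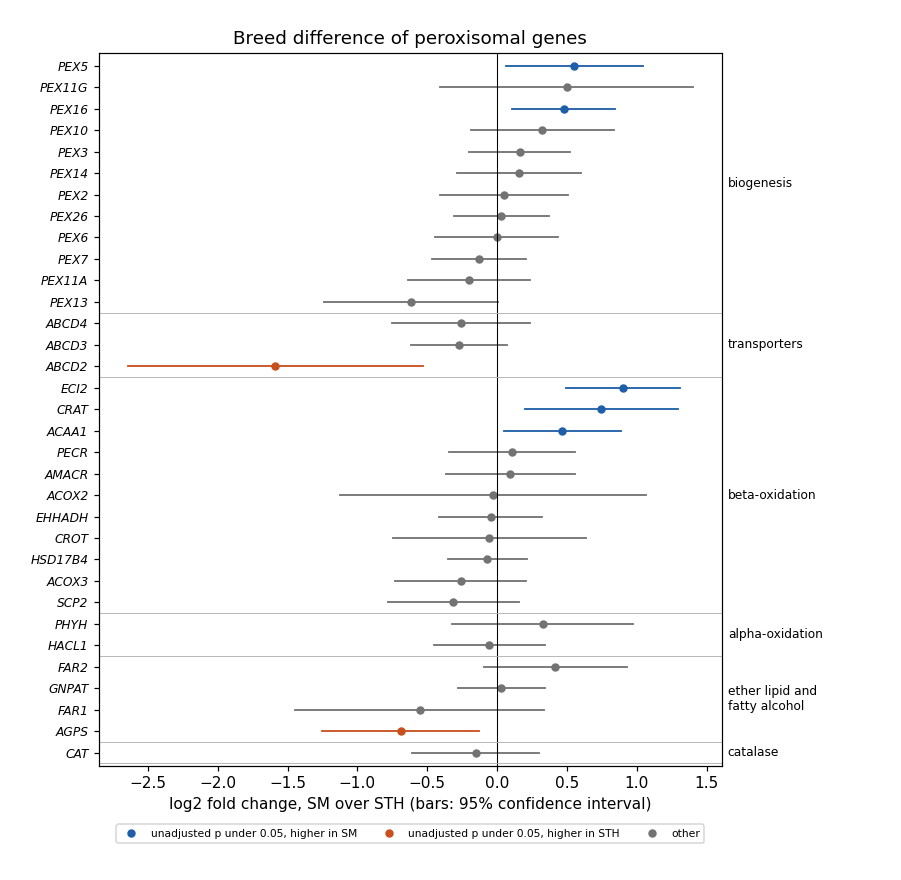
Log2 fold change of SM over STH for each peroxisomal gene, with bars for its 95% confidence interval, grouped by role and ordered by size. Coloured genes had an unadjusted p under 0.05 and the 26 grey ones did not. Genes on either side of 0 are found in the biogenesis group and among the enzymes, and the 3 transporters are all below 0.

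In the ether lipid pathway the enzymes of successive steps had differences of unlike size. GNPAT, which makes the first intermediate, was even across the sheep at 58.5 to 70.7 CPM, with a log2 fold change of 0.03 (95% confidence interval -0.28 to 0.34). AGPS, which exchanges the acyl chain of that intermediate for a fatty alcohol, was at 18.7, 15.6 and 10.6 CPM in the SM and 20.4, 30.6 and 21.5 CPM in the STH sheep. The breeds were separated, with a gap of 18.7 to 20.4 CPM between the nearest animals. The log2 fold change of AGPS was -0.69 (adjusted p = 0.254, SE 0.25) and ranged from -0.88 to -0.48 in the fits with 1 animal fewer. AGPS is on chromosome 2 from 131470562 to 131563510, on the minus strand.

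The reductases FAR1 and FAR2 supply the fatty alcohols, and FAR1 is known for ether lipid synthesis in most tissues whereas FAR2 is known from sebaceous and eyelid glands. FAR1 was at 52.9 CPM in SM sheep 128 but at 21.6 and 15.3 CPM in 30034 and 30126, and all STH sheep were between 42.7 and 44.8 CPM. SM sheep 128 was the highest of all 6 and the other SM sheep the lowest. Its log2 fold change was -0.55 (adjusted p = 0.429, SE 0.39), and -1.25 without SM sheep 128, when it passed both thresholds. FAR2 was much more abundant, at 62.7 against 4.10 RPKM for FAR1 over the 6 sheep. It was at 600, 493 and 505 CPM in the SM sheep and at 286, 531 and 379 CPM in the STH sheep. STH sheep XW5 was within the range of the SM sheep. The log2 fold change of FAR2 was 0.42 (adjusted p = 0.330, SE 0.23), and 0.68 without STH sheep XW5. Within a sheep the ratio of FAR2 to FAR1 as RPKM was 13.7, 27.4 and 39.7 in the SM and 8.08, 14.3 and 10.3 in the STH sheep.

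Biogenesis genes and enzymes were set side by side in each sheep as the mean of log2 CPM over the genes of each group. The biogenesis mean was 4.17, 4.12 and 4.41 for SM and 4.10, 4.19 and 4.16 for STH. The enzyme mean was 5.41, 5.35 and 5.31 for SM and 5.20, 5.45 and 5.34 for STH. The breeds overlapped in both. The enzyme mean exceeded the biogenesis mean by a distance on the log2 scale of 1.12 ± 0.20 (SD, n = 3) in the SM sheep, where STH had 1.18 ± 0.08 (SD, n = 3). The size of this distance depends on exon length, and it is compared only between sheep. This distance was 0.90 in SM sheep 30126, whose biogenesis mean was the highest of the 6, and between 1.10 and 1.26 in the other 5 sheep. The enzyme median of the log2 fold changes was below the biogenesis median by 0.14, and above it by 0.06 without SM sheep 30126. Between sheep of a breed, the median coefficient of variation of the biogenesis genes was 16.5% in SM and 10.3% in STH sheep, and that of the enzymes 21.2% and 15.2%, beside 19.7% and 14.1% over all genes tested.

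**Figure D4:**
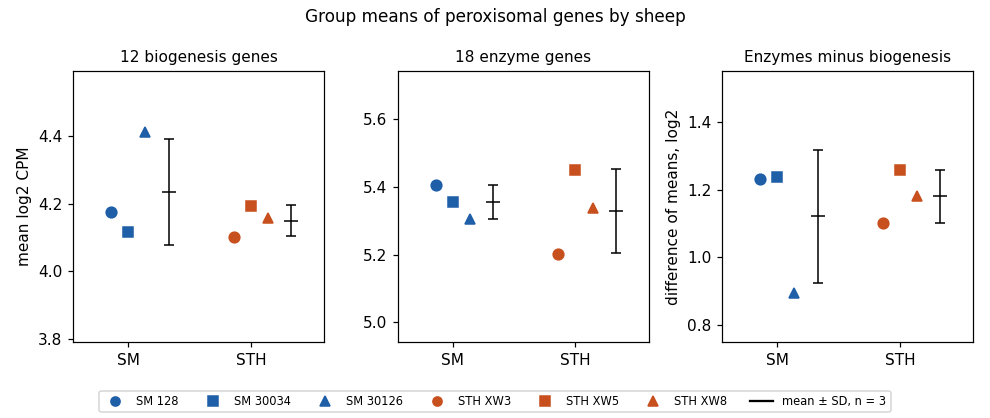
Mean log2 CPM over the 12 biogenesis genes and the 18 enzymes in each sheep, and their difference, with the mean ± SD of each breed. The vertical axes are cropped, do not start at 0 and cover the same width. SM sheep 30126 is highest in biogenesis and has the smallest difference, 0.90, and the breeds overlap in each panel.

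Sebaceous gland markers were higher in SM sheep as well. All 12 listed markers, among them the wax synthase genes AWAT1 and AWAT2 and the lipid droplet gene PLIN2, had a log2 fold change above 0, with a median of 0.99, and 9 of them had an unadjusted p under 0.05. The summed level of the 12 markers was 3261 to 4730 CPM in SM and 1895 to 2415 CPM in STH sheep, highest in SM sheep 30126. That sheep was also the highest for ECI2 and CRAT, and for 33.4% of all genes tested. FAR2 was instead highest in SM sheep 128, at 600 CPM against 505 CPM in 30126. None of the 12 was at 0 in any sheep. Of these markers, AWAT1, DGAT2L6, ELOVL3, FA2H, CIDEA, PLIN2 and KRT79 are among the genes that the study picked as higher in SM from these same libraries. The count of markers higher in SM is thus not independent of that choice. The summed adipocyte markers were 233 to 431 CPM in SM and 223 to 260 CPM in STH sheep, but PLIN4 alone carried 158 to 380 CPM of the SM sums. Without PLIN4, a choice made after its values were seen, the sums were 40.3 to 74.8 CPM in SM and 148 to 188 CPM in STH sheep, the opposite order. FABP4, another marker of fat cells, had a log2 fold change of -1.84 (adjusted p = 0.159, SE 0.31). ADIPOQ, a defining marker, was between 0.198 and 8.71 CPM. At an unadjusted p under 0.05, 1 of 7 tested adipocyte markers was on the SM side, or 14.3% against 7.21% of all genes. On the STH side there were 2, or 28.6% against 10.8%. The skeletal muscle markers were 41.3 to 56.0 CPM in SM and 62.7 to 105 CPM in STH sheep. Of the 5 tested markers, 2 were higher in STH sheep at an unadjusted p under 0.05, or 40.0% against 10.8% of all genes. Of the 9 skin markers 8 had a log2 fold change below 0, with a median of -0.38. At an unadjusted p under 0.05, 3 were higher in STH sheep, or 33.3% against 10.8% of all genes. These were the keratinocyte genes KRT1 (-1.20), KRT10 (-1.34) and DSG1 (-0.71). The part of these cell types in the differences of ECI2, CRAT, ACAA1, FAR2, ABCD2 and AGPS was not tested.

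Log2 fold changes of the members were lower for long genes. Of the 11 members with the shortest genomic span, 6371 to 17448 bases and including PEX16, CRAT, ECI2 and PEX5, 9 had a log2 fold change above 0. Of the 11 with the longest, 50826 to 177357 bases and including ABCD2, AGPS, FAR1 and SCP2, 2 did. Across the 33 members the Spearman correlation of log2 fold change with span was -0.52, and across all 15320 genes tested it was -0.28. Without SM sheep 30126 it was -0.32 for the members and -0.20 for all genes, and without SM sheep 128 -0.51 and -0.32. The grouping by span was chosen after the values had been seen, and these genes share the same 6 libraries. With the trend of each sheep on exon length removed, the 7 members kept an unadjusted p under 0.05, FAR2 joined them, and the share of all genes at that level was 19.6%, of which 10.3% on the SM and 9.35% on the STH side. The correlation with span was then -0.44 for the members and -0.09 for all genes.

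Other peroxisomal genes were taken from a list of 49, of which 45 were found and 39 tested. None passed both thresholds in the quasi-likelihood test, and 1, CRYM, did so in the likelihood ratio test and in DESeq2. Without SM sheep 128, when 7.73% of all genes passed, CRYM on the SM side and DNM1L, PNPLA8 and ACBD5 on the STH side passed in the quasi-likelihood test. At an unadjusted p under 0.05, 6 were higher in SM sheep, or 15.4% against 7.21% of all genes, and 5 higher in STH sheep, or 12.8% against 10.8%. The median log2 fold change was 0.19. CRYM, which encodes a peroxisomal ketimine reductase that binds thyroid hormone, was at 6.02, 17.0 and 8.79 CPM in the SM and 3.99, 3.89 and 2.71 CPM in the STH sheep. The breeds did not overlap, and the log2 fold change was 1.59 (adjusted p = 0.229, SE 0.38), with an adjusted p of 0.0127 by the likelihood ratio test. CRYM is also among the genes picked by the study from these libraries. PXMP4, a peroxisomal membrane protein, was higher in all SM sheep as well, with a log2 fold change of 0.56 (adjusted p = 0.247, SE 0.19).

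Lower in SM sheep was DNM1L, the dynamin-like GTPase that cuts peroxisomes and mitochondria apart. It was at 69.8, 57.6 and 38.6 CPM in SM and 86.6, 93.3 and 84.7 CPM in STH sheep, without overlap, which gave a log2 fold change of -0.67 (adjusted p = 0.247, SE 0.21). PNPLA8, a phospholipase of peroxisomes and mitochondria, had the largest difference in that direction, -0.78 (adjusted p = 0.247, SE 0.26), with 71.9, 43.8 and 33.8 CPM in SM and 77.4, 92.1 and 87.3 CPM in STH sheep. TMEM135, a membrane protein of both organelles, had -0.42 (adjusted p = 0.250, SE 0.14). For DNM1L and PNPLA8, as for FAR1 and PEX13, SM sheep 128 was the SM animal nearest to the STH sheep.

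Leaving out SM sheep 128, which raised the share of all genes past both thresholds from 0% to 7.73%, gave the largest number of members past them. At an unadjusted p under 0.05 it raised the share of all genes to 30.3%. PEX5, CRAT and ECI2, higher in SM, and PEX13 and FAR1, higher in STH sheep, then passed both thresholds in the quasi-likelihood test. This corresponds to 3 of 33 members against 1.34% of all genes in the first direction and 2 of 33 against 6.39% in the second. Without SM sheep 30126 no member passed, against 0.0132% of all genes (0.00658% in each direction), and the genes with an unadjusted p under 0.05 were PEX16, CRAT and ECI2 on the SM side, against 4.84% of all genes, and ABCD2 on the STH side, against 6.50%. ECI2 and ABCD2 had an unadjusted p under 0.05 whichever sheep was left out. CRAT lost it without STH sheep XW3, PEX16 without STH sheep XW5, and AGPS without SM sheep 30126 or STH sheep XW5. PEX5 kept it only without SM sheep 128 or STH sheep XW8, and ACAA1 only without SM sheep 128.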

How the data were processed

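Skin RNA of 6 ewes, 3 SM and 3 STH by the sample labels, was analysed. The authors mapped paired-end reads to Oar_v4.0 with CLC Genomics Workbench and deposited 1 table per sheep. The deposited total counts are whole numbers without normalization, and which reads were counted is not given in the sources used here. The RPKM values deposited by the authors are the counts per exon length times 1 factor per library, and were used for levels between genes. The deposited TPM values and a deposited score named CPM by the authors were not used.

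The 15320 genes that reached 10 counts in 3 or more sheep were normalized by TMM and tested with breed as the only term by edgeR 4.0.16 (estimateDisp, glmQLFit, glmQLFTest) in R 4.3.3, with Benjamini-Hochberg adjustment over all genes. Standard errors are the log2 fold change over the square root of F, and 95% confidence intervals use the t distribution with the fitted degrees of freedom. Group means use log2 CPM with a prior count of 2. The script was tested on simulated counts. DESeq2 1.42.0 and edgeR's likelihood ratio test were among 12 alternatives. P values weigh the breed difference against the spread between sheep of a breed, which is estimated partly from all genes together. Chromosomes are those of the files, numbered from the RefSeq name table, which matched 21630 of 28394 identifiers.

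A gene passed at an adjusted p under 0.05 and a fold change over 1.5 in either direction. The members and lists were chosen with earlier results of these data known. Members with an unadjusted p under 0.05 were described per sheep, as were the largest changes of each role. Of the other peroxisomal genes, those with the 5 smallest unadjusted p and the largest change in each direction were named. The genes named in the closing section were chosen after their values were seen. Some genes of the other peroxisomal list are not reported here by name.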

Additional observations from a re-analysis of the deposited data

How the results depend on the processing

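Of the 33 members, 20 kept the direction of their log2 fold change under all 12 alternatives, among them PEX5, PEX16, ABCD2, ACAA1, CRAT, ECI2 and AGPS. The number past both thresholds, 0, became 2 with the likelihood ratio test and 1 with DESeq2, and ranged from 0 to 5 as each sheep was left out, 5 being without SM sheep 128. At an unadjusted p under 0.05, the members higher in SM sheep ranged from 2 to 6 and those higher in STH sheep from 1 to 4 as each sheep was left out, and the other peroxisomal genes from 1 to 10 and from 1 to 5, while the share of all genes ranged from 3.13% to 12.7% and from 4.21% to 17.6%. Without SM sheep 30126 the direction turned in 7 members, more than under any other alternative. Over all the fits with 1 sheep left out, the biogenesis median log2 fold change ranged from -0.0436 to 0.186. The enzyme median ranged from -0.0614 to 0.0596, and the enzyme median minus the biogenesis median from -0.187 to 0.0613.

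Most directions that turned were those of small differences, but PEX11G, at 0.50 with all sheep, and PHYH, at 0.33, turned as well. With the length trend removed PEX6 had 0.101, ACOX2 0.0668, EHHADH 0.0691 and CROT 0.0215. With upper quartile normalization PEX6 had 0.0294 and ACOX2 0.0073, and without a count filter PEX6 had 0.0008. As each sheep was left out, the range was -0.0774 to 0.204 for PEX2, -0.187 to 0.104 for PEX6, -0.0538 to 0.729 for PEX11G, -0.0334 to 0.282 for PEX14, -0.0301 to 0.118 for PEX26, -0.438 to 0.235 for ACOX2, -0.123 to 0.0666 for EHHADH, -0.0387 to 0.265 for AMACR, -0.294 to 0.248 for CROT, -0.0066 to 0.560 for PHYH, -0.152 to 0.0890 for HACL1, -0.0276 to 0.0943 for GNPAT and -0.289 to 0.0244 for CAT. The cause was not tested. The same alternatives, applied to the other named genes after seeing the data, turned no direction except that of PPARA (-0.157 to 0.185), for which only the fits without a sheep were examined. No paired analysis was possible because the labels name single animals and pair none of them. ABCD2 and ACOX2, with 10 to 42 counts per sheep, are limited by depth.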

Other observations

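Mitochondrial beta-oxidation, which shares its reactions with the peroxisomal cycle, was higher in SM sheep in 14 of 18 tested genes, with a median log2 fold change of 0.30 beside 0.02 for all genes. At an unadjusted p under 0.05, 7 were higher in SM sheep, or 38.9% against 7.21% of all genes. On the STH side it was 1, or 5.56% against 10.8%. None passed both thresholds in the quasi-likelihood test, against 0% of all genes. In the likelihood ratio test 1 passed, where 2.30% of all genes did, and in DESeq2 3 passed, where 2.78% did. SLC25A20, the carrier of acylcarnitine into mitochondria, was at 44.3, 44.3 and 69.9 CPM in the SM and 24.4, 29.3 and 28.8 CPM in the STH sheep, without overlap. Its log2 fold change was 0.94 (adjusted p = 0.200, SE 0.21), with an adjusted p of 0.00771 by the likelihood ratio test. SLC25A20 is also among the genes picked by the study from these libraries. ACAA2, the mitochondrial thiolase, had 0.67 (SE 0.18), ECHS1, the enoyl-CoA hydratase, 0.64 (SE 0.18), and HADH, the hydroxyacyl-CoA dehydrogenase, 0.63 (SE 0.20), each with all SM sheep above all STH sheep. Without SM sheep 30126 the log2 fold change was 0.70 for SLC25A20, 0.51 for ACAA2, 0.45 for ECHS1 and 0.40 for HADH. ACADSB, a dehydrogenase for short branched chains, was on the other side at -0.64 (SE 0.22).

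Among 8 regulators tested, PPARG, the nuclear receptor of lipid-storing cells, was at 46.6, 43.6 and 46.7 CPM in SM and 25.9, 38.9 and 28.8 CPM in STH sheep, which gave 0.55 on the log2 scale (adjusted p = 0.247, SE 0.18). PPARA, the receptor known for control of peroxisomal genes in liver, had -0.01 (SE 0.24). PPARGC1A, a coactivator of oxidative metabolism, was low and lower in all SM sheep, with 4.17, 1.99 and 1.48 CPM against 5.74, 7.18 and 4.60 CPM, a difference of -1.21 on the log2 scale (adjusted p = 0.247, SE 0.41). Of 9 ether lipid genes that act outside the peroxisome, AGMO, which cleaves the ether bond of alkylglycerols, was at 5.42, 6.35 and 4.87 CPM in SM and 9.34, 11.1 and 10.3 CPM in STH sheep. For AGMO the log2 fold change was -0.89 (adjusted p = 0.213, SE 0.20), with an adjusted p of 0.0305 by the likelihood ratio test, in the same direction as AGPS. PCYT2, of ethanolamine phospholipid synthesis, had 0.61 (SE 0.23) with overlapping breeds.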
